A study of Rattus norvegicus with 4 samples.

Results

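The cell proliferation genes are a set of 45 genes of DNA replication and mitosis, taken from a written list and not from measured values. The list was nevertheless chosen with earlier results of these data known. They were read in rat soleus, a slow postural muscle of the hind limb, on 4 one-colour Agilent expression arrays. A probe's RefSeq accession gave 39 of the 45 a symbol on the array, out of 26633 genes and transcripts in all. The 39 are 12 of the 13 S-phase members (genes that copy DNA or commit a cell to copying it) and 27 of the 32 mitotic members (genes that build the spindle and divide the cell). Top2a, Bub1b, Cenpe, Kif4a, Mcm5 and Melk were not matched to a probe and were not analysed here.

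There were 4 groups of male rats. The regenerated overloaded group was 18 weeks old and had soleus muscle that was overloaded after regenerating. The overloaded group, also 18 weeks old, had enlarged soleus muscle, with no CTX injection named in its labels. The regenerated group was 16 weeks old and was sampled 8 weeks after CTX was injected. The normal group was 16 weeks old. Overloaded and normal muscle are called uninjured below because their labels name no injection. The sample titles end in R or L, which the labels do not expand, so whether groups shared animals is not known. CTX is not spelled out in the labels, and it usually stands for cardiotoxin, from cobra venom, which kills muscle fibres and spares their stem cells. How load was raised is not given in the labels, nor how long before sampling the overloaded regenerated muscle had been injected. RNA from 6 muscles was mixed for each array, so each group is 1 array, and no test between groups and no p-value can be given.

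Dividing cells pass through S phase, when the DNA is copied, and then mitosis, when the copies are pulled apart. S-phase genes such as the Mcm helicase subunits are switched on mainly by E2F transcription factors. Many mitotic genes are held silent in resting cells by the DREAM complex and switched on later by B-Myb and FoxM1, through promoter elements known as CCAAT boxes and the cell cycle homology region (CHR). Muscle fibres do not divide. New nuclei come from satellite cells, the muscle stem cells, while macrophages, fibroblasts and endothelial cells can also divide in a muscle under load.

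The promoters of 6 members on which the results turn are printed to show how these elements are arranged. Cdk1, Cdca3, Nusap1 and Aspm are mitotic members that were at least 2-fold higher in both overload comparisons. Mcm7 and Mcm3 are S-phase members that were not. Each runs 5′ to 3′ from 250 bases before to 50 bases after the annotated start, from RefSeq on build GRCr8. Capitals mark the CCAAT box (which reads ATTGG on the opposite strand), the CHR element TTTGAA (which reads TTCAAA on the opposite strand) and an E2F site, searched on both strands. The 4 forms of the E2F site were TTCCCGC, with TTCGCGC, with TTGCCGC, with TTGGCGC. The intervals are chr20:19265043-19265342, plus strand, for Cdk1, chr4:159320953-159321252, plus strand, for Cdca3, chr3:127057045-127057344, plus strand, for Nusap1, and chr13:53625334-53625633, plus strand, for Aspm. They are chr12:22163129-22163428, minus strand, for Mcm7, and chr9:30733697-30733996, minus strand, for Mcm3.
Cdk1: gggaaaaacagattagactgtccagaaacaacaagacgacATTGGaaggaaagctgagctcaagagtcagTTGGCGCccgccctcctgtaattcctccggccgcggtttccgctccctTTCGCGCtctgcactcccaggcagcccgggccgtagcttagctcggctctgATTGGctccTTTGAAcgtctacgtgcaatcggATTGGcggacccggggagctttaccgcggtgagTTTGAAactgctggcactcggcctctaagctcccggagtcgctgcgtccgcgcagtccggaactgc
Cdca3: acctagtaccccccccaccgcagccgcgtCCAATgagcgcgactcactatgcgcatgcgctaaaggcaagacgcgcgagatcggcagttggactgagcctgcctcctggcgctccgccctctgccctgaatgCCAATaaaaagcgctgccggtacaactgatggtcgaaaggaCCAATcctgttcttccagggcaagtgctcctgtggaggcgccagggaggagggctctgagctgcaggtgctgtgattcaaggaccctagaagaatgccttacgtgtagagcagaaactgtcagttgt
Nusap1: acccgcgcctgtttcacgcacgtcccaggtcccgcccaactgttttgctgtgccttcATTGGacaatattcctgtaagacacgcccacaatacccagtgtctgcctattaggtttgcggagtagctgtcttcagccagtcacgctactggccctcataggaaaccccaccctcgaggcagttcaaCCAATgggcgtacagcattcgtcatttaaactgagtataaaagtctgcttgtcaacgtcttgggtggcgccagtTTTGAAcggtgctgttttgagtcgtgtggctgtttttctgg
Aspm: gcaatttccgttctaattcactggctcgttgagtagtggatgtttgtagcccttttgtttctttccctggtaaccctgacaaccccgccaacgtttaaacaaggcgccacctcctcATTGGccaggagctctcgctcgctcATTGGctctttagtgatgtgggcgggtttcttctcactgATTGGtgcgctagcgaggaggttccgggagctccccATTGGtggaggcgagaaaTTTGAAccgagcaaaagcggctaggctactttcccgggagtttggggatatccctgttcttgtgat
Mcm7: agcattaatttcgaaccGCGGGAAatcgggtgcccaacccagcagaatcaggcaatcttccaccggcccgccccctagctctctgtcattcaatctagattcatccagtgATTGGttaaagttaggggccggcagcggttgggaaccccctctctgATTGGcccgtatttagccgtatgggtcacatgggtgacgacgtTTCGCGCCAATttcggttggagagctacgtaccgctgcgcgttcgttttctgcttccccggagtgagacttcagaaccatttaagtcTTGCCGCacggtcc
Mcm3: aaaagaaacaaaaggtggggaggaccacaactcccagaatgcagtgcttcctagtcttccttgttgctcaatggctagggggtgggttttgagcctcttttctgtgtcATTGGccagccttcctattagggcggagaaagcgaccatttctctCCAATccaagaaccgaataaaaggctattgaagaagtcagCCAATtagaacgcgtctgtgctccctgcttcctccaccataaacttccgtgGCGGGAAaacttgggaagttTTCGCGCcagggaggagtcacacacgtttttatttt

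In the Cdk1 promoter the CHR elements began 72 and 16 bases before the start, with CCAAT boxes 210, 81 and 49 bases before it. Aspm had 4 CCAAT boxes and 1 CHR element 16 bases before its start. Cdca3 had 3 CCAAT boxes, 221, 118 and 77 bases before the start, and no CHR match in this window. Mcm7 and Mcm3 had no CHR match and held 4 and 2 E2F forms. An E2F form and a CCAAT box can share letters, as they do in Mcm7.

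RefSeq promoters were found for 37 of the 45 members. Among the 27 mitotic members with one, 19 (70.4%) held the CHR form and 21 (77.8%) a CCAAT box, and 16 (59.3%) held both. Among the 10 S-phase members 1 (10%) held the CHR form, 6 (60%) a CCAAT box, and 0 held both. E2F forms ran the other way, in 4 mitotic promoters (14.8%) and 7 S-phase promoters (70%). Of 27457 rat promoters of the same length, 18.2% held the CHR form, 37.7% a CCAAT box, 7.32% both and 9.92% an E2F form. Of 11 promoters of members at least 2-fold higher in an overload comparison, 8 held CHR, 8 CCAAT and 1 E2F. Of the 20 promoters of the other members on the array, 9 held CHR, 15 CCAAT and 9 E2F. The 11 are all mitotic members save Ccne1, and no promoter was found for the called members Ccna2, Rrm2 and Tpx2. The 20 include S-phase members such as Mcm2, Mcm3, Mcm6, Mcm7 and Pcna. They also include mitotic members that held the CHR form, such as Ccnb2, Cdc20, Mki67 and Plk1. These counts therefore mix the split by call with the one between mitotic and S-phase members, and the 2 were not separated. A match is a run of letters and was not tested as a binding site.

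All 12 slow muscle genes on the array were well above background on all 4 arrays. The normal array was the dimmest, with 60.2% of probe spots well above background against 67.9% to 70.4% on the others. Its median local background was 44 intensity units and that of the others 32 to 33. Scaled to each array's 75th percentile, the dimmest probe still called above background had a signal of 32.5 in normal muscle and 14.7 to 17.8 on the others. This touches dim members, so a comparison with normal muscle gives many of them a smallest fold only. The normal array plays no part in setting regenerated overloaded against regenerated muscle. Overloaded and non-overloaded groups also differed in age (18 and 16 weeks) and in slide row (2 and 1), and these cannot be told apart from load.

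Signals below are scaled signals in intensity units, the processed signal after each array was scaled to its 75th percentile. They are compared between arrays for 1 probe, not between genes. The error beside a log2 difference is a technical standard error from the spread of repeated spots, and it holds nothing of the spread between animals. The threshold for calling a gene higher or lower was 2-fold. Where a gene was above background on 1 of 2 arrays only, the fold is the smallest that the dim array allows and is written "at least".

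Members above background numbered 33 of 39 on the regenerated overloaded array, 33 on the overloaded, 30 on the regenerated and 18 on the normal. For mitotic members the counts were 22, 22, 20 and 10 of 27, and for S-phase members 11, 11, 10 and 8 of 12, in the same order. Over all genes the shares were 62.1%, 64.8%, 63.3% and 54.5%. In all, 18 members were above background on every array. The 6 that were on none were the cyclin Ccne2, the chromosomal passenger genes Aurkb and Cdca8, the kinetochore gene Cenpf, the kinase Pbk and the spindle gene Hmmr.

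**Figure D1:**
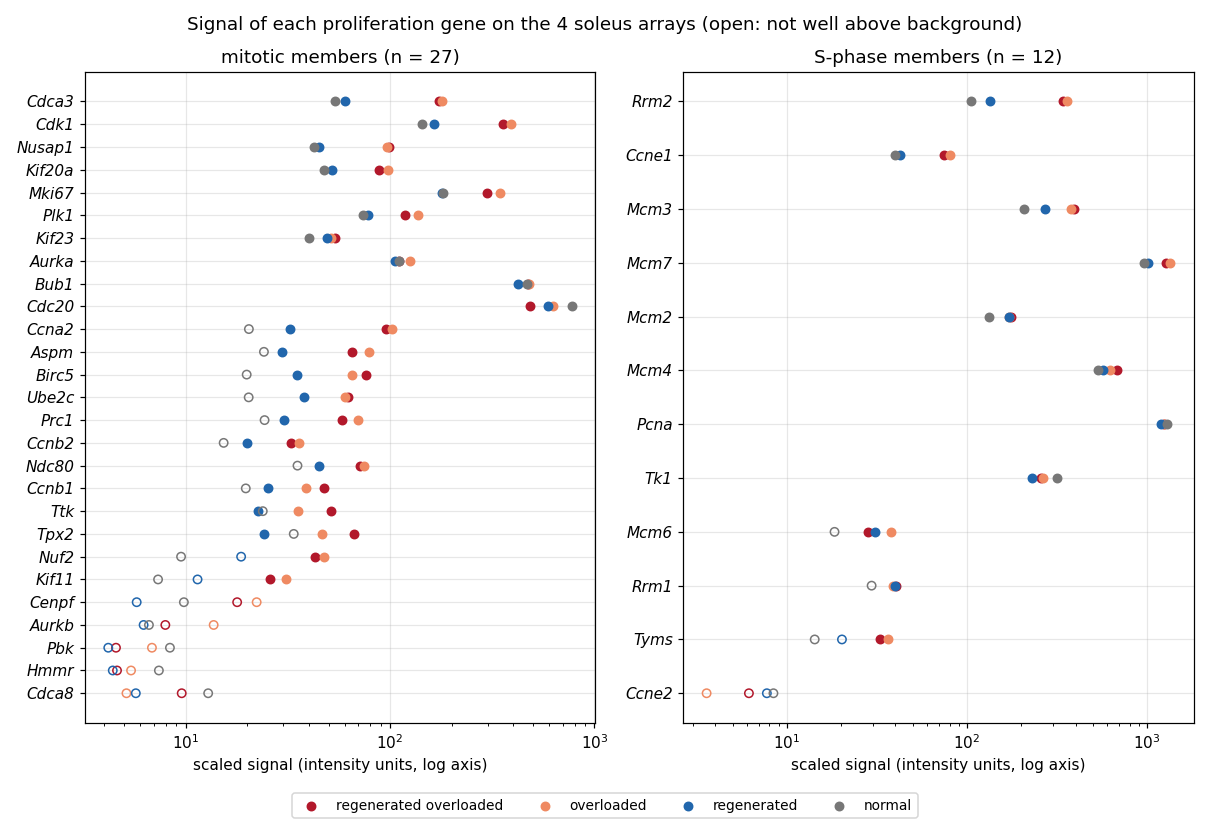
Scaled signal (intensity units, log axis) of the 27 mitotic and 12 S-phase members, 1 point per array and an open point where the probe was not well above background. For most members from Cdca3 to Plk1 and for Rrm2, the 2 overloaded arrays lie together to the right of the other 2, whereas the points of Bub1 and Pcna nearly coincide and normal muscle is highest for Cdc20.

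Overloaded soleus had higher signals for many mitotic genes than soleus without overload, in regenerated and in uninjured muscle, and S-phase genes differed less. Against regenerated muscle, regenerated overloaded muscle had 9 of 22 measured mitotic members (40.9%) and 1 of 11 S-phase members (9.09%) at least 2-fold higher, and 0 lower. Among all genes measured 1.55% were that much higher and 0.442% lower. The median log2 difference was 0.93 for the mitotic and 0.27 for the S-phase members, and -0.03 for all genes. In muscle that had not been injured, overloaded against normal, 8 of 22 mitotic members (36.4%) and 2 of 11 S-phase members (18.2%) were at least 2-fold higher and 0 lower, where 2.42% of all genes were higher and 0.74% lower. The medians there were 1.13 and 0.49, and -0.08 for all genes. More dividing cells and more of these RNAs per cell cannot be told apart in whole muscle.

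These counts include genes measured through the brighter array alone. With members above background on both arrays, the mitotic and S-phase medians were 0.84 (20 genes) and 0.22 (10 genes) for regenerated overloaded against regenerated muscle. For overloaded against normal muscle they were 0.91 (10 genes) and 0.43 (8 genes). With every one-sided gene of that comparison at its smallest fold they were 0.88 and 0.25. The mitotic median was above the S-phase median in both overload comparisons under each of 11 ways of processing. The gap was 0.67 log2 units (0.14 to 0.75 across settings) in regenerated and 0.64 (0.09 to 0.64) in uninjured muscle, and was smallest with the normexp background correction. Classes were not tested against each other, since members are not replicates.

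**Figure D2:**
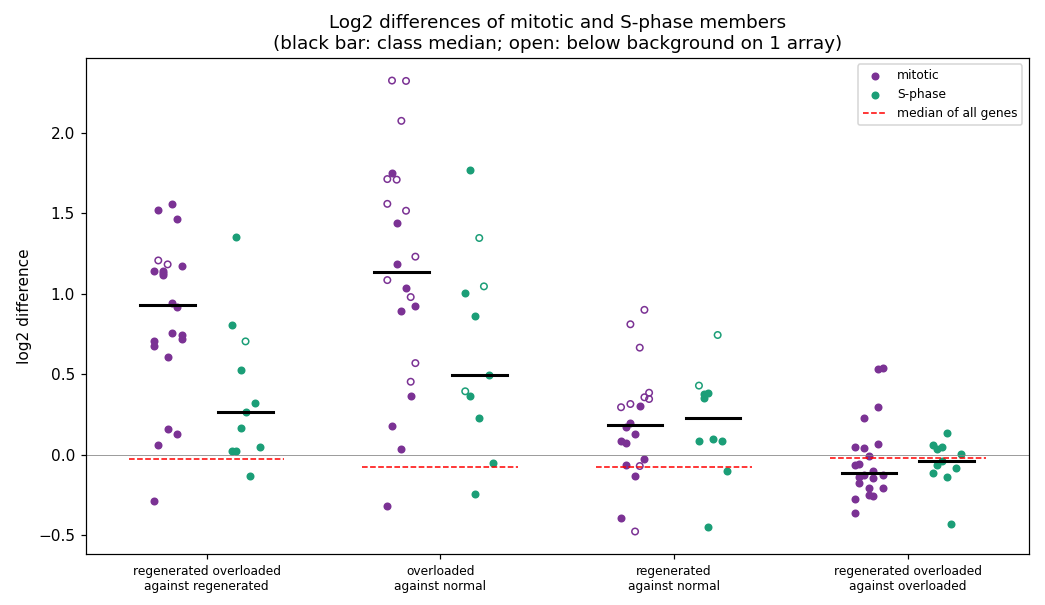
Log2 difference of each measured mitotic and S-phase member in the 4 comparisons, with the class median as a black bar and the median of all genes as a dashed line. The mitotic bars stand at 0.93 and 1.13 in the overload comparisons, above the S-phase bars at 0.27 and 0.49. For regenerated against normal muscle the mitotic and S-phase bars stand at 0.18 and 0.23. For regenerated overloaded against overloaded muscle they stand at -0.11 and -0.04.

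Cdk1, the kinase that drives entry into mitosis, had 355.6 units in regenerated overloaded, 388.7 in overloaded, 163.8 in regenerated and 143.1 in normal muscle. Both overloaded arrays were high and both others low. The log2 difference was 1.12 ± 0.036 (2.17-fold) for regenerated overloaded against regenerated and 1.44 ± 0.045 (2.72-fold) for overloaded against normal muscle, from 10 spots per array. Ccna2, the cyclin A of S phase and early mitosis, gave 95.0, 101.8, 32.3 and 20.4 units in regenerated overloaded, overloaded, regenerated and normal muscle, the last below background. It was 2.94-fold higher (1.56 ± 0.23) in regenerated overloaded than in regenerated muscle and at least 3.13-fold higher in overloaded than in normal muscle. The B cyclins, partners of Cdk1 in mitosis, were also brighter on both overloaded arrays. Ccnb1 had 47.6, 38.8, 25.2 and 19.7 units, and Ccnb2 had 32.9, 35.96, 20.02 and 15.3, with both below background in normal muscle. Their log2 differences between regenerated overloaded and regenerated muscle were 0.92 ± 0.35 and 0.72 ± 0.38, under 2-fold. In overloaded against normal muscle they were at least 1.19-fold and at least 1.11-fold higher, which sets no upper limit.

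Cdca3, which promotes entry into mitosis, was, with Rrm2, the most separated of the members seen on every array. Its signal was 172.9 in regenerated overloaded and 180 in overloaded muscle, against 60.4 in regenerated and 53.6 in normal muscle. The overload differences were 1.52 ± 0.12 (2.86-fold) in regenerated and 1.75 ± 0.32 (3.36-fold) in uninjured muscle. Mki67, the gene of the Ki-67 protein that coats mitotic chromosomes and is widely stained to find dividing cells, had 299.8, 345.8, 179.0 and 182.3 units in regenerated overloaded, overloaded, regenerated and normal muscle. Its differences were 0.74 ± 0.038 and 0.92 ± 0.047, under 2-fold in both though large beside the spot error. Another pair of Mki67 probes, above background on every array, gave 0.86 and 1.02 in regenerated muscle and 0.65 and 0.37 in uninjured muscle, so the size differed between probes. Plk1 and Aurka, kinases of spindle assembly, did not pass 2-fold either. Plk1 had 119.0, 137.2, 78.0 and 74.0 units, high in both overloaded muscles, whereas Aurka had 110.6, 125.2, 106.0 and 110.8, nearly level across the arrays.

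Of the 8 spindle and cytokinesis genes on the array, Nusap1 and Aspm were at least 2-fold higher in both overload comparisons. Nusap1, which bundles spindle microtubules, had 98.9 units in regenerated overloaded, 96.1 in overloaded, 44.8 in regenerated and 42.3 in normal muscle, again high in the overloaded pair. It was 2.21-fold higher (1.14 ± 0.083) in regenerated and 2.27-fold higher (1.19 ± 0.15) in uninjured overloaded muscle than in the matching muscle without overload. Aspm, a spindle pole gene, gave 65.3, 79.1, 29.6 and 24.1 units, with normal muscle below background. It was 2.21-fold higher (1.14 ± 0.13) in regenerated overloaded muscle and at least 2.43-fold higher in overloaded than in normal muscle.

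Prc1, which holds the central spindle together, had 58.1, 69.5, 30.2 and 24.3 units in regenerated overloaded, overloaded, regenerated and normal muscle. It was at least 2.14-fold higher in overloaded than in normal muscle and differed by 0.94 ± 0.14 between the regenerated pair. A dimmer Prc1 probe was below background on every array. Kif20a, a motor of cytokinesis, had 88.0, 97.4, 52.1 and 47.5 units and passed 2-fold in uninjured muscle only by a little (1.04 ± 0.33), against 0.76 ± 0.24 in regenerated muscle. Tpx2, a spindle assembly factor read from 1 spot, had 66.8, 46.2, 24.3 and 33.8 units, the last below background. It was 2.75-fold higher (1.46 ± 0.47) in regenerated overloaded than in regenerated muscle, and at least 1.37-fold higher in overloaded than in normal muscle. The motor gene Kif11 was above background on the overloaded arrays only, at 25.9 and 30.8 units, against 11.4 in regenerated and 7.32 in normal muscle. Only smallest folds can be given for it, at least 1.57-fold in regenerated and at least 1-fold in uninjured muscle, which leave a larger difference possible. The motor gene Kif23 was nearly level, at 53.9, 51.3, 49.3 and 39.9.

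Among the checkpoint and kinetochore genes, which tie chromosomes to the spindle, Nuf2 and Ndc80 encode partners in 1 complex. Nuf2 had 43.1 units in regenerated overloaded and 47.5 in overloaded muscle and was below background in regenerated (18.7) and normal muscle (9.49). It was at least 2.31-fold higher in regenerated overloaded and at least 1.46-fold higher in overloaded muscle. Ndc80 had 71.6, 74.7, 44.8 and 35.2 units, below background in normal muscle only. It was 0.68 ± 0.24 log2 units higher in regenerated overloaded than in regenerated muscle, and at least 2.12-fold higher in overloaded than in normal muscle. Ttk, the Mps1 checkpoint kinase, read from 1 spot, had 51.2, 35.3, 22.7 and 23.8 units and was 2.26-fold higher (1.17 ± 0.49) in regenerated overloaded than in regenerated muscle. Bub1, another checkpoint kinase, was level at 474.3, 476.8, 424.0 and 465.7 units. A dimmer Bub1 probe was below background on every array.

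Birc5 (survivin), of the chromosomal passenger complex, had 76.2, 64.9, 34.8 and 19.9 units in regenerated overloaded, overloaded, regenerated and normal muscle. Both overloaded arrays were again high. It was 2.19-fold higher (1.13 ± 0.28) in regenerated overloaded muscle, and its smallest log2 difference in overloaded against normal muscle, 0.997, was just short of 2-fold. The anaphase-promoting complex genes parted. Ube2c, its ubiquitin-conjugating enzyme, read from 1 spot, had 62.0, 59.8, 37.9 and 20.3 units, with the larger signals on the overloaded arrays. It differed by 0.71 ± 0.39 in regenerated muscle and was at least 1.84-fold higher in overloaded than in normal muscle. Cdc20, its activator, ran against the other mitotic members, with 485.1, 624.0, 592.2 and 776.7 units and normal muscle highest. Its log2 differences were -0.29 ± 0.07 and -0.32 ± 0.067 in the overload comparisons, and it was the only measured mitotic member below 0 in either.

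Rrm2, the regulatory subunit of the ribonucleotide reductase that makes DNA precursors, was the one S-phase member at least 2-fold higher in both overload comparisons. Its brightest probe had 341.5 units in regenerated overloaded, 356.4 in overloaded, 133.8 in regenerated and 104.6 in normal muscle. Both overloaded arrays stood well above both others, by 1.35 ± 0.096 (2.55-fold) in regenerated and 1.77 ± 0.15 (3.41-fold) in uninjured muscle. A dimmer Rrm2 probe was above background in regenerated overloaded muscle alone. Its -0.09 for overloaded against normal muscle comes from 2 readings below background and is not a measured difference. Rrm1, the large subunit, read from 1 spot, was level at 40.4, 38.8, 39.7 and 29.5 units, the last below background.

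Tyms and Tk1 supply thymidine nucleotides. Tyms had 32.9 and 36.3 units in regenerated overloaded and overloaded muscle and was below background in regenerated (20.2) and normal muscle (14.3). It was at least 1.63-fold and at least 1.11-fold higher in the overload comparisons. Tk1 had 257.5, 264.2, 229.4 and 313.6 units, highest in normal muscle. Cyclin E1, Ccne1, which starts S phase, had 74.3, 80.2, 42.4 and 40.0 units, with both overloaded arrays high. It passed 2-fold in uninjured muscle (1.01 ± 0.34) and not in regenerated muscle (0.81 ± 0.24).

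The Mcm2 to Mcm7 proteins form the helicase that opens DNA for copying, and Pcna is the clamp that holds the polymerase on it. None of these genes was called at 2-fold in any comparison. Among those above background on every array, Mcm3, read from 1 spot, differed most with overload. It had 390.7, 377.4, 271.1 and 207.6 units in regenerated overloaded, overloaded, regenerated and normal muscle, lowest in normal muscle. Its overload differences were 0.53 in regenerated and 0.86 in uninjured muscle, where a dimmer Mcm3 probe gave 0.50 and 0.38. Mcm7 had 1266, 1342, 1012 and 954.1 units, with overload differences of 0.32 ± 0.058 and 0.49 ± 0.059. Mcm4 (680.7, 620.2, 566.5 and 530.2 units) and Mcm2 (174.6, 170.6, 171.7 and 132.5) differed less. Mcm6 was dim (28.1, 37.9, 30.8 and 18.4) and below background in normal muscle. It was at least 1.17-fold higher in overloaded than in normal muscle, which sets no upper limit. Pcna was level at 1237, 1235, 1194 and 1281 units, with overload differences of 0.05 ± 0.058 and -0.05 ± 0.059.

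The calls differed in how far they rested on the handling of background. The normexp correction, which adjusts each spot with its local background and here adds an offset of 50 to every signal, left 0 members at 2-fold or more in regenerated muscle and 2, Cdk1 and Rrm2, in uninjured muscle. With no offset, a setting chosen after seeing the data, 3 members were called in regenerated muscle and 4 in uninjured muscle. Cdca3, Cdk1 and Rrm2 were called in both, and Ccna2 in uninjured muscle. Cdk1 in overloaded against normal muscle was the only member call made under all 10 alternatives. Rrm2 in that comparison was lost, at 0.84, when a gene's probes were averaged, and so was Prc1. For both genes the dimmer probe averaged in was below background on both arrays compared. The uninjured calls of Ccne1, Kif20a, Ndc80 and Prc1 were each also lost with quantile normalization.

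**Figure D3:**
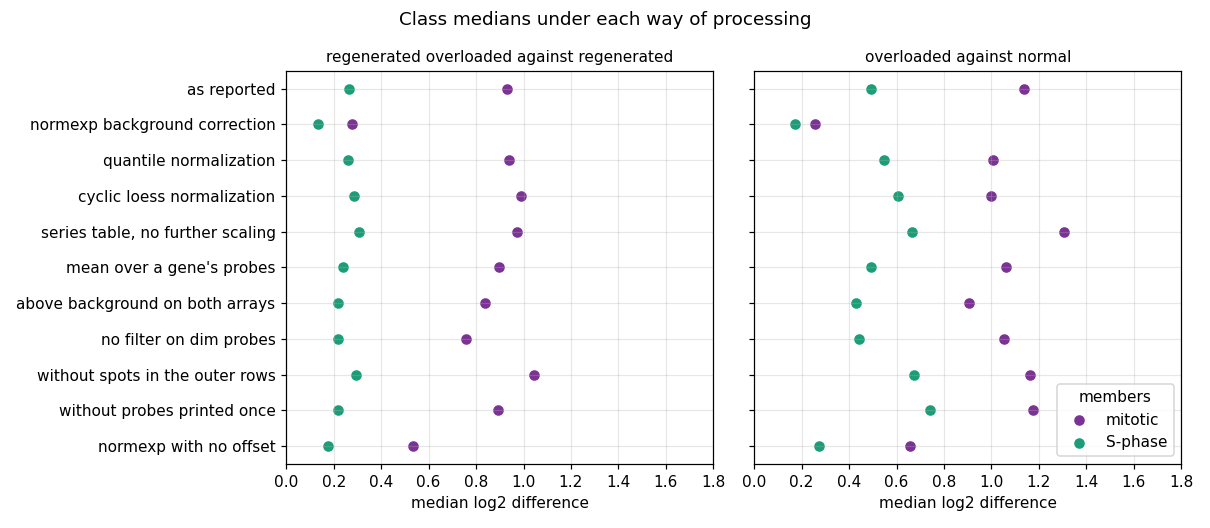
Median log2 difference of the measured mitotic and S-phase members in the 2 overload comparisons under each of 11 ways of processing. The mitotic point lies right of the S-phase point in every row, with the smallest gaps, 0.14 and 0.09, in the normexp row.

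The overload comparisons in regenerated and in uninjured muscle have no array in common. Each had 10 members at least 2-fold higher, and 6 were shared (60% of each list), namely Aspm, Ccna2, Cdca3, Cdk1, Nusap1 and Rrm2. Over all genes 96 were shared, 36.1% of the 266 in regenerated and 23.0% of the 418 in uninjured muscle. Birc5, Nuf2, Tpx2 and Ttk were called in regenerated muscle alone, and Ccne1, Kif20a, Ndc80 and Prc1 in uninjured muscle alone. A call in 1 comparison alone is no measured difference between the muscles, since most of these lay close to the threshold or were limited by the dim normal array.

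The difference with overload in regenerated muscle, less that in uninjured muscle, was taken for the 18 members above background on all 4 arrays. It ran from -0.42 (Rrm2, ± 0.18) to 0.41 (Tk1, ± 0.13), with a median of -0.19, and was negative for 13. Over the 14417 genes so measured the median was 0.07 and 38.0% were negative. Cdk1 gave -0.32 ± 0.058. In total 0 members differed by 2-fold or more, against 0.763% of all genes, so that count does not set the 18 apart. The difference between the muscles could not be tested.

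**Figure D4:**
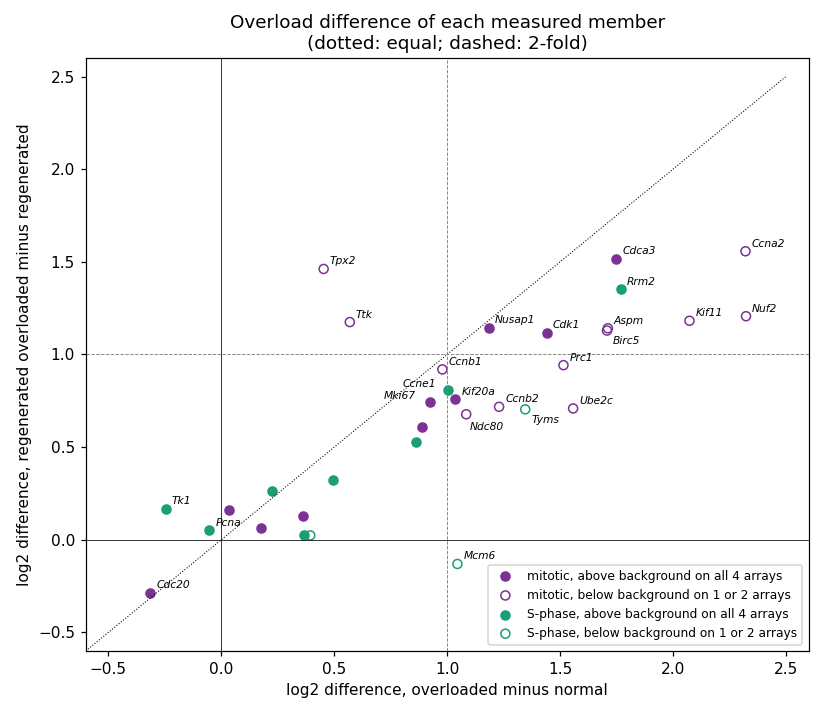
Overload difference (log2) of each measured member in regenerated muscle (vertical) against that in uninjured muscle (horizontal), purple for mitotic and green for S-phase members, open where a probe was below background on 1 or 2 arrays. Cdca3, Ccna2 and Rrm2 lie far from the origin on both axes, Cdc20 lies below 0 on both, and most filled points fall on or below the line of equal difference, as 13 of 18 did.

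Regenerated muscle 8 weeks after injection was set against normal muscle to see what regeneration alone had left. Of 30 measured members 0 were called at 2-fold in either direction, against 1.92% of all genes. For 10 mitotic and 2 S-phase members that rests on a smallest fold, since normal muscle was below background. Given the share over all genes, a count of 0 in 30 does not set the members apart. The median log2 difference was 0.18 for the 20 mitotic and 0.23 for the 10 S-phase members, and -0.08 for all genes. With members above background on both arrays the medians were 0.08 and 0.09. Cdk1 differed by 0.20 ± 0.047 and the brightest Mki67 probe by -0.03, where its other probes gave -0.44 and -0.78. In addition, Tk1 was lower in regenerated muscle (-0.45 ± 0.098), as was Cdc20 (-0.39 ± 0.069), both short of 2-fold.

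Regenerated overloaded muscle was also set against overloaded uninjured muscle. Among 33 measured members 0 passed 2-fold, against 1.69% of all genes, and the medians were -0.11 for mitotic and -0.04 for S-phase members. At that share a count of 0 in 33 does not set the members apart from all genes. Mki67 differed by -0.21 ± 0.038, Cdk1 by -0.13 ± 0.033 and Rrm2 by -0.06 ± 0.073. Of the mitotic members 15 of 22 were lower in regenerated overloaded muscle and 7 higher, none by 2-fold, beside 9433 lower among the 17493 genes measured.

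Further genes of the same pathways, listed for this work, were read in the same way. These lists too were chosen with earlier results of these data known, so they are no independent check. Of 48 other mitotic genes 36 were on the array. In regenerated overloaded against regenerated muscle 7 of 28 measured were at least 2-fold higher and 0 lower, with a median of 0.52. In overloaded against normal muscle 6 of 29 were, with a median of 0.74. Over all genes the shares higher were 1.55% and 2.42%. With genes above background on both arrays the medians fell to 0.40 (25 genes) and 0.30 (18 genes). With one-sided genes at their smallest fold, the median of overloaded against normal muscle was 0.35. Cks2, which binds Cdk1, had 183.1, 152.4, 71.6 and 61.8 units in regenerated overloaded, overloaded, regenerated and normal muscle. It was 2.56-fold and 2.47-fold higher in the overload comparisons. The kinesin Kif22 (2.20-fold and 2.34-fold), the spindle protein gene Ckap2 (2.234-fold and 2.997-fold) and the kinetochore genes Cenpw (at least 2.87-fold and 2.25-fold) and Spc25 (at least 3.06-fold and 2.005-fold) were also higher in both. Kif18b and Ect2 passed in regenerated muscle alone and Dlgap5 in uninjured muscle alone. Of 34 other S-phase genes on the array, 0 of 23 and 0 of 24 measured passed 2-fold in either direction, with medians of 0.14 and 0.09. Beside the shares over all genes, these counts of 0 do not set the list apart.

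Genes that control entry into the cycle were read as well. Of the cell cycle regulators 0 of 17 measured were at least 2-fold higher in regenerated overloaded against regenerated muscle and 0 of 19 in overloaded against normal muscle, with medians of 0.03 and 0.14. Over all genes the shares were 1.55% and 2.42%, so counts of 0 in lists this short do not set the regulators apart. E2f1, an activator of S-phase genes, had 163.2, 161.5, 134.5 and 103.5 units in regenerated overloaded, overloaded, regenerated and normal muscle. Foxm1, an activator of mitotic genes, had 56.3, 51.5, 43.1 and 32.4, the last below background. Mybl2, the gene of B-Myb, had 16.1, 23.8, 4.24 and 7.25 and was above background in overloaded muscle alone. It was at least 1-fold higher there than in normal muscle, which leaves a larger difference possible. Of the 8 CDK inhibitors, which halt the cycle, 0 of 7 were at least 2-fold higher in regenerated overloaded against regenerated muscle. Cdkn1c (p57), at 3.91-fold, was the 1 of 8 in overloaded against normal muscle. It had 2972, 3033, 2341 and 776 units in regenerated overloaded, overloaded, regenerated and normal muscle, low in normal muscle alone. It was also 3.02-fold higher in regenerated than in normal muscle.

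Cdkn2a, which encodes the p16 and Arf proteins, was high in both muscles that had been injected. It had 189 units in regenerated overloaded and 219.9 in regenerated muscle, against 38.6 in overloaded and 28.8 in normal muscle, the last below background. It was 4.89-fold higher in regenerated overloaded than in overloaded muscle and at least 6.76-fold higher in regenerated than in normal muscle. Its neighbour Cdkn2b (p15) was 3.65-fold and at least 3.06-fold higher in the same comparisons. Cdk6, a kinase of early cycle entry that p16 and p15 bind, had 138.8, 78.7, 196.4 and 69.1 units and was 2.84-fold higher in regenerated than in normal muscle.

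Markers of cells that can divide in muscle were read beside the members, from lists also chosen with earlier results of these data known. The fibroblast list had 6 of 11 genes at least 2-fold higher in regenerated overloaded against regenerated muscle (median 1.07) and 8 of 11 in overloaded against normal muscle (median 1.59), with 0 lower. Over all genes the shares higher were 1.55% and 2.42%. Col1a1, Lum, Thy1, Postn, Cthrc1 and Fap were called in both and Col1a2 and Col3a1 in uninjured muscle alone. Their folds ran from 2.09 (Col1a1) to 6.68 (Cthrc1) in regenerated and from at least 2.19 (Thy1) to 8.79 (Cthrc1) in uninjured muscle. The summed signal of the fibroblast list was 275975 units in regenerated overloaded, 209535 in overloaded, 159939 in regenerated and 81730 in normal muscle. Most of that sum was collagen signal, with Col1a1, Col1a2 and Col3a1 at 57846, 107204 and 63785 units in regenerated overloaded muscle. None of the fibroblast genes was below background on all arrays. The macrophage list had 0 of 14 higher in regenerated muscle (median 0.25) and 3 of 14 in uninjured muscle (median 0.78), which were Adgre1, Aif1 and Cd68. Its summed signal was 76662, 70734, 62696 and 40583 units, and Marco was on no array above background. Most of that sum was Lyz2 and C1qb, at 33742.5 and 20441 units in regenerated overloaded muscle.

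The satellite cell and myoblast list had 0 of 10 genes at 2-fold or more higher in either overload comparison, with medians of 0.03 and 0.18. Pax7, which defines satellite cells, and Megf10 were not above background on any array. Endothelial markers had 0 of 10 higher in either, with medians of -0.00 and 0.20. Lymphocyte and plasma cell markers had 0 of 6 and 0 of 5 higher, with medians of 0.00 and 0.80. Over all genes the shares were 1.55% and 2.42%, so counts of 0 in these short lists do not set the cell types apart. Pou2af1 was 2.79-fold lower in regenerated overloaded than in regenerated muscle and at least 2.83-fold higher in regenerated than in normal muscle, and Cd3e, Cd2 and Cd79b were on no array above background. Of the erythroid genes Ahsp, a chaperone of globin, was the 1 of 5 measured at 2-fold or more in regenerated overloaded against regenerated muscle, at 2.64-fold. The part of these cell types in the mitotic signal was not tested.

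**Figure D5:**
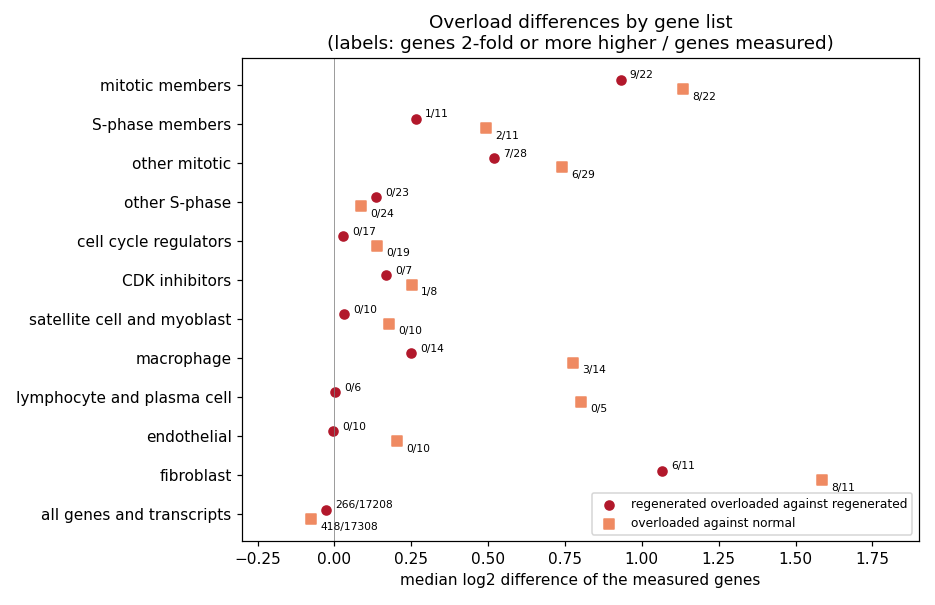
Median log2 difference of the measured genes of each list in regenerated overloaded against regenerated (circles) and overloaded against normal muscle (squares), labelled with the genes at least 2-fold higher over the genes measured. Fibroblast markers (1.07 and 1.59) and mitotic members (0.93 and 1.13) lie farthest right in both comparisons, and regulators, satellite cell and endothelial lists lie near the median of all genes.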

How the data were processed

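The deposited scanner files gave, for each spot, the processed signal, median signal and median local background as intensity, and flags (a unit of other) for background, outliers and saturation, all made by the authors with Agilent Feature Extraction 11.5.1.1, per the file headers. Version 10.10.1.1 stands in the submitters' processing notes. A series table, also deposited as intensity by the authors, equalled the processed signal times 1 constant per array. Per the labels' protocols, Cy3-labelled cRNA was made from total RNA.

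Each array held 58717 probe spots. Outlier spots (406 to 451 per array) were left out, and 0 were saturated. From each spot's log2 processed signal the log2 of the 75th percentile of that array was subtracted. Repeated spots were averaged into probes (above background where over 0.5 of them were), and the probe brightest on average across arrays stood for a gene. Scaled signals are these values times the geometric mean of the percentiles. Of 30367 probes 18643 matched 15637 symbols by accession. The headers place probes on build rn4, and the names come from a GRCr8 table, used for names and promoters only. A gene counted as measured if either array compared had it above background. For folds and calls of one-sided genes, the dim array's value was the higher of its lowest probe signal well above background and the gene's own. Medians and plotted log2 differences used the gene's own signal on the dim array, except where given at the smallest fold. Technical standard errors pool the spot SD in 20 bins of signal. The number of arrays, 1 per group, limits the precision.

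Per-array values are given for members at 2-fold or more in a comparison, for the brightest member of a role with none, and for further members beyond that. Of other lists, genes at 2-fold or more in a comparison are named, at most 8 per list. Cdkn2a, Cdkn2b, Cdk6, E2f1, Foxm1 and Mybl2 are shown with values chosen with the data in view. The members and lists were chosen with earlier results of these data known. The alternatives were normexp background correction (offset 50), quantile and cyclic loess normalization in limma 3.58.1 (R 4.3.3), the series table, the mean of a gene's probes, both arrays above background, no filter, and leaving out outer rows or probes printed once. Calculations used Python 3.11.15 and were tested on simulated data. That test gave every array the background flags of the normal array, so it did not cover one-sided genes.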

Additional observations from a re-analysis of the deposited data

Results flagged for a closer look

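Of the 18 members above background on every array, Pcna and Tk1 had overload differences of opposite sign in the 2 kinds of muscle. Tk1 was 0.17 ± 0.078 log2 units higher in regenerated overloaded than in regenerated muscle and -0.25 ± 0.1 in overloaded against normal muscle, a difference of 0.41 ± 0.13 between them. For Pcna the values were 0.05 ± 0.058 and -0.05 ± 0.059, a difference of 0.10 ± 0.083. With 1 array per group neither difference between the muscles was tested, and the Pcna values are within about their technical standard errors.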

How the results depend on the processing

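No paired analysis was possible because no group had more than 1 array, and for the same reason no replicate was left out. Counts at 2-fold or more are given for regenerated overloaded against regenerated (ROR), overloaded against normal (ON), regenerated against normal (RN) and regenerated overloaded against overloaded muscle (ROO). No member called at 2-fold reversed under any alternative, though the mitotic median of RN, 0.18 as reported, went as low as -0.06 with normexp, and the causes of the shifts were not tested beyond what an alternative does by construction.

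With normexp and its offset, which pulls dim signals together by construction, members higher numbered 0 (ROR; 0 S-phase, 0 mitotic) and 2 (ON; 1 and 1). The medians were 0.13 for S-phase and 0.28 for mitotic members (ROR), 0.17 and 0.26 (ON), and 0.060 for S-phase members (RN). All genes higher numbered 78, 136, 65 and 43 across the 4 comparisons, and lower 23, 46, 31 and 26. With no offset, chosen after seeing the data, 3 members (2 mitotic) were higher in ROR and 4 (1 S-phase, 3 mitotic) in ON. The mitotic medians were then 0.54 and 0.66 and the S-phase median of ON 0.28. All genes higher numbered 147, 254, 136 and 112, and lower 49, 72 and 73 in ROR, RN and ROO.

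Requiring both arrays above background left 6 members higher in ON (4 mitotic). All genes higher then numbered 139 and 103 in RN and ROO, and lower 48, 84, 60 and 41. With no filter on dim probes 19 members were higher in ON (4 S-phase, 15 mitotic) and 2 lower (1 of each class), and 2 members, both mitotic, were lower in RN. All genes higher were 712, 1112, 784 and 654, and lower 748, 4586, 1425 and 784. Quantile normalization left 6 members higher in ON (1 S-phase, 5 mitotic). S-phase members higher in ON fell to 1 with cyclic loess, with a gene's probes averaged, and without probes printed once.

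Without probes printed once the S-phase median of ON was 0.74. All genes higher numbered 144 and 82 in ROR and ROO, and lower 34, 45, 41 and 42. The series table gave an S-phase median of 0.66 in ON, with 707 genes higher and 82 lower there and 322 higher in RN. It also shifted the all-gene median of ON by 0.17 and of RN by 0.13, so differences there are best read against that median. Without the outer rows the S-phase median of ON was 0.68. The main counts they are set against were 10 and 10 members higher in ROR and ON, 266, 418, 212 and 176 genes higher and 76, 128, 112 and 119 lower.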
